A study of Mus musculus with 2 samples.

Results

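The genes described here encode the Myc, Max and Mxd transcription factors. They are *Myc*, *Mycn*, *Max*, *Mxd1*, *Mxd3*, *Mxd4*, *Mxi1* and *Mnt*, and the deposited table has a row for each, 8 genes of 22095. They were chosen by name with earlier results of these data known, since the lower value of *Mxd3* in si*Malat1* was among the reasons for the choice, so that the difference in *Mxd3* is given as a description. The samples are cells of C2C12, a mouse myoblast line that stops dividing and fuses into myotubes when serum is withdrawn. They were transfected with a negative control oligo (siNC) or with an siRNA oligo against the long non-coding RNA *Malat1* (si*Malat1*) and kept in differentiation medium with a low content of horse serum for 2 days, a time taken from the paper since the labels give none, and their polyadenylated RNA was sequenced. The labels name no other treatment. Each group is 1 library, so the spread between cultures is unknown and neither a p-value nor a standard error is given. Values are FPKM (fragments of a transcript divided by its length and by all mapped fragments of the library) from the authors, which are scaled by transcript length and can therefore be compared between genes. A log2 ratio here is that of si*Malat1* over siNC after 0.1 FPKM was added to both values, a scale that understates the change of low genes.

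Myc and N-Myc are basic helix-loop-helix leucine zipper proteins that bind DNA only as dimers with Max. The dimers bind the E-box CACGTG and promote growth, ribosome assembly and division. Mxd1, Mxi1, Mxd3, Mxd4 and Mnt compete for Max and for the same E-boxes, and recruit the Sin3 scaffold and histone deacetylases to repress transcription. In many lineages Myc is high in dividing cells while Mxd1, Mxi1 and Mxd4 are tied to cell cycle exit and differentiation, whereas Mxd3 is known as the family member expressed in S phase of dividing cells. Mnt is present in both dividing and resting cells.

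The knockdown target *Malat1* had 41.8 FPKM in siNC, against 34.2 in si*Malat1* (log2 ratio -0.29). Both libraries held muscle RNA, since all 7 muscle markers examined exceeded a mean of 1 FPKM and their summed FPKM was 6055 in siNC, against 8662 in si*Malat1*. Most of that sum and of its difference was the skeletal actin gene *Acta1* (3326 and 5199 FPKM). Of the myogenic factors, *Myog* was higher in si*Malat1* (524.7 and 856.5 FPKM), while *Myod1* (112.7 and 95.8 FPKM) and *Myf5* (23.8 and 17.3 FPKM) were lower. The muscle genes *Myh3* (303.6 and 530.5 FPKM), *Ckm* (111.8 and 157.0 FPKM) and *Des* (1652 and 1805 FPKM) were higher as well. Of 20 markers of leukocytes, endothelium, adipocytes, bone and cartilage, neurons and epithelium, 1 exceeded a mean of 1 FPKM, the osteocalcin gene *Bglap* (4.76 and 5.77 FPKM). *Emr1*, *Adipoq*, *Plin1* and *Epcam* are listed at 0 in both libraries, and the neuron marker *Rbfox3* has no entry. *Pax7*, the marker of satellite cells, had 2.98 and 1.54 FPKM. The 6 proliferation genes summed to 175.4 FPKM in siNC, against 139.6 in si*Malat1*. Their median was -0.52 on the log2 scale, and 3 of them were at least 1.5-fold lower. In bulk RNA, fewer dividing cells and less RNA per dividing cell cannot be told apart. A gene was compared where it had FPKM above 0 in both libraries and a mean of at least 1 FPKM, which held for 11099 genes. Of these, 254 (2.29%) were at least 1.5-fold higher in si*Malat1* and 194 (1.75%) at least 1.5-fold lower. The median over all of them was -0.04 on the log2 scale, 57.4% were below 0, and the middle 90% lay between -0.40 and 0.38. *Malat1* itself, at -0.29, lay within that range, and 10.5% of the genes compared had a lower ratio. The paper reports a PCR check of the knockdown in the sequenced samples.

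The study lists 2 siRNA pairs against *Malat1*, and no source used here says which was in the sequenced cells. Their antisense strands are shown because the seed, bases 2 to 8 in capitals, was searched for in the network.
siMalat1 antisense: uUACUUAUcacucauucac
siMalat1 antisense#2: uAAGCCUUcauguuaucuc
The matching letters, ATAAGTA and AAGGCTT, were looked for in the annotated 3' UTR of the transcript with the longest coding sequence of each gene. ATAAGTA occurs 1 time in *Mxi1* and in no other member, and AAGGCTT 1 time in *Max* and in no other member. Of 9410 genes compared with a 3' UTR of at least 50 bases, 728 (7.74%) hold the first and 1135 (12.1%) the second. *Mxd3* holds neither in its 615 bases.

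Of the 8 genes, 7 reached a mean of 1 FPKM, and *Mycn* did not. The order of levels in siNC was *Mxd4*, *Max*, *Myc*, *Mxd3*, *Mnt*, *Mxi1*, *Mxd1* and *Mycn*. In si*Malat1* the order was the same except that *Mxd3* moved from the fourth place to the sixth, behind *Mnt* and *Mxi1*. Without replicates it cannot be said which neighbours in this order differ beyond their spread. Of the 7 genes compared, 5 were lower in si*Malat1* than in siNC and 2 were higher, beside 57.4% of all genes compared that were lower. *Mxd3* was the 1 that passed 1.5-fold, beside 1.75% of all genes compared that were lower by that much. The choice of genes used this contrast, so nothing is read from these counts. With both libraries scaled to the same FPKM sum, *Max* joined the lower side.

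**Figure D1:**
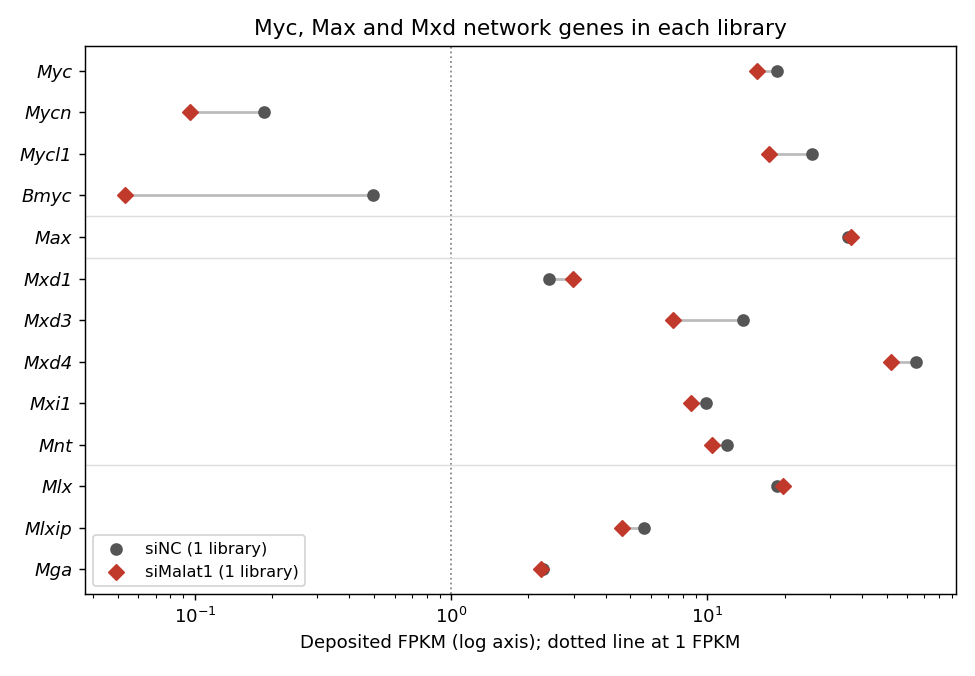
FPKM in the siNC library (gray circles) and in the si*Malat1* library (red diamonds) of 8 network genes and of 5 further genes of the wider network, on a log axis, 1 library a group and no error bars. *Mxd4* is the highest at 65.1 and 52.0 FPKM, *Mxd3* stands at 13.8 and 7.34 FPKM, and *Mycn* and *Bmyc* lie under 1 FPKM in both libraries.

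Since Myc, Max and Mxd proteins bind CACGTG, the RefSeq promoters of the network genes in GRCm38 (250 bases before to 50 after the start site) were searched for it on both strands. Entries were found for 13 of the 14 network genes, all but *Myc*. The motif is its own reverse complement and occurs in 2349 of 32851 promoters, 7.15%. Among the 8 members it occurs in the promoters of *Max*, *Mxd4* and *Mnt*, with its first base 3, 219 and 123 bases before the start site, and in the wider network it occurs in those of *Mlx* and *Mlxipl*. The windows are shown because they hold the letters that the network's own proteins bind, with the E-box in capitals.
Max, chr12:76962234-76962263, minus strand: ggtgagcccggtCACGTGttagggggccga
Mxd4, chr5:34187912-34187941, minus strand: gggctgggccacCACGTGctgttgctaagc
Mnt, chr11:74830789-74830818, plus strand: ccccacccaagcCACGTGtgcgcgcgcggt
Mlx, chr11:101087238-101087267, plus strand: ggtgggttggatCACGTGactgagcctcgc
The genes with these windows had log2 ratios of 0.04 for *Max*, -0.32 for *Mxd4*, -0.20 for *Mnt* and 0.07 for *Mlx*. A match describes the letters and is no evidence of binding.

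Among the activators, *Myc*, which drives growth and cell cycle entry, had 18.7 FPKM in siNC, against 15.6 in si*Malat1*. The log2 ratio was -0.26, a ratio that 13.2% of the genes compared were below. *Mycn*, which encodes N-Myc and is best known from embryonic and neural tissue, stood at 0.185 FPKM in siNC, against 0.0953 in si*Malat1*. It was thus near the bottom of the measurable range in both, and its log2 ratio of -0.55 is not read as a difference, since it went from -0.89 to -0.11 with the constant added before the logarithm. Of these 2 genes, *Myc* thus made up nearly the whole sum.

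*Max*, the obligate partner of both sides, had the log2 ratio nearest to 0 of the members, with 35.3 FPKM in siNC, against 36.3 in si*Malat1*. The ratio was 0.04, and the sign turned to -0.01 when both libraries were scaled to the same FPKM sum. It was second in level in both libraries, above *Myc* and below *Mxd4*.

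Among the repressors, *Mxd3* had 13.8 FPKM in siNC, against 7.34 in si*Malat1*, and its log2 ratio was -0.90. Of the genes compared, 0.261% had a lower ratio. Of the 3549 genes with a mean between 10 and 30 FPKM, the class that holds *Mxd3*, 0.676% were at least 1.5-fold lower. The mean of *Mxd3*, 10.6 FPKM, lies near the lower edge of that class. Of the 2954 genes with a mean of 3 to 10 FPKM, 2.47% were lower by that much. All 6 proliferation genes were lower in si*Malat1* as well. *Mki67*, a marker of cycling cells, had 9.67 and 5.67 FPKM (log2 ratio -0.76), the topoisomerase *Top2a* 22.7 and 13.97 FPKM (-0.70) and the helicase subunit *Mcm2* 28.1 and 18.3 FPKM (-0.62). The mitotic kinase *Cdk1* (18.6 and 13.9 FPKM, -0.42), its cyclin *Ccnb1* (13.1 and 10.0 FPKM, -0.38) and the replication clamp *Pcna* (83.2 and 77.8 FPKM, -0.10) did not pass 1.5-fold. Their part in the value of *Mxd3* was not tested.

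The *Mxd3* promoter has no CACGTG in this window, no CAGCTG, the form of the E-box that MyoD favors, and none of the E2F words TTTCCCGC, TTTGGCGC and TTTCGCGC. It holds GGGCGG, the GC box, 8 times in the direction of the gene, with first bases from 138 to 44 bases before the start site, some of them sharing a base with the next. GC boxes occur in 35.7% of all promoters, CAGCTG in 16.3% and the E2F words in 1.84%. The 250 bases before the start site of *Mxd3* are shown because this gene has the lowest log2 ratio of the members compared, with the GC boxes in capitals.
Mxd3, chr13:55329732-55329981, minus strand: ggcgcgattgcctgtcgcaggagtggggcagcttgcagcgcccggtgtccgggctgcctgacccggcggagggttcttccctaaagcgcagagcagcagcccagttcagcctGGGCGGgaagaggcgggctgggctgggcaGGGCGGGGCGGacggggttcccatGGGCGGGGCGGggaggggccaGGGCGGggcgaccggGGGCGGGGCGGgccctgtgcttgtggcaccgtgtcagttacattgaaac
The box occurs 6 times in the promoter of *Mxd1*, which lay on the higher side, and 1 time in that of *Mxd4*. Of the 13 network genes searched, *Mycn* alone holds E2F words. It has 3, with first bases 183, 179 and 168 bases before the start site, of which the first is in capitals, the second overlaps it on the other strand and the last runs past the end of the stretch shown.
Mycn, chr12:12942001-12942030, minus strand: agcaaatggctTTTGGCGCgaaaggctttg
*Mycn* was under 1 FPKM in both libraries, as given above.

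*Mxd4*, a repressor linked to differentiation, was the most abundant of the network at 65.1 FPKM in siNC, against 52.0 in si*Malat1*. Its log2 ratio was -0.32, and 8.40% of the genes compared were below it. In FPKM its difference of -13.1 was the largest in size of the 8 genes, and that of *Mxd3* was -6.47. *Mxi1*, the repressor also known as Mxd2, stood at 9.91 FPKM in siNC, against 8.60 in si*Malat1* (log2 ratio -0.20). *Mnt*, the broadly expressed antagonist of Myc, stood at 11.9 and 10.4 FPKM (log2 ratio -0.20). Of all genes compared, 19.5% were below *Mxi1* and 20.4% below *Mnt*, which places both within the bulk of the table.

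*Mxd1*, the founding Mxd repressor, was the 1 member besides *Max* with the higher value in si*Malat1*, 2.41 FPKM in siNC, against 2.98 in si*Malat1*. The log2 ratio was 0.30, and 7.32% of the genes compared were above it. Genes of this level are more scattered, since 6.63% of the 1448 genes with a mean of 1 to 3 FPKM were at least 1.5-fold higher in si*Malat1*. *Mxd1* and *Mxd3* thus lay on opposite sides of 0, under each of the scalings tried.

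**Figure D2:**
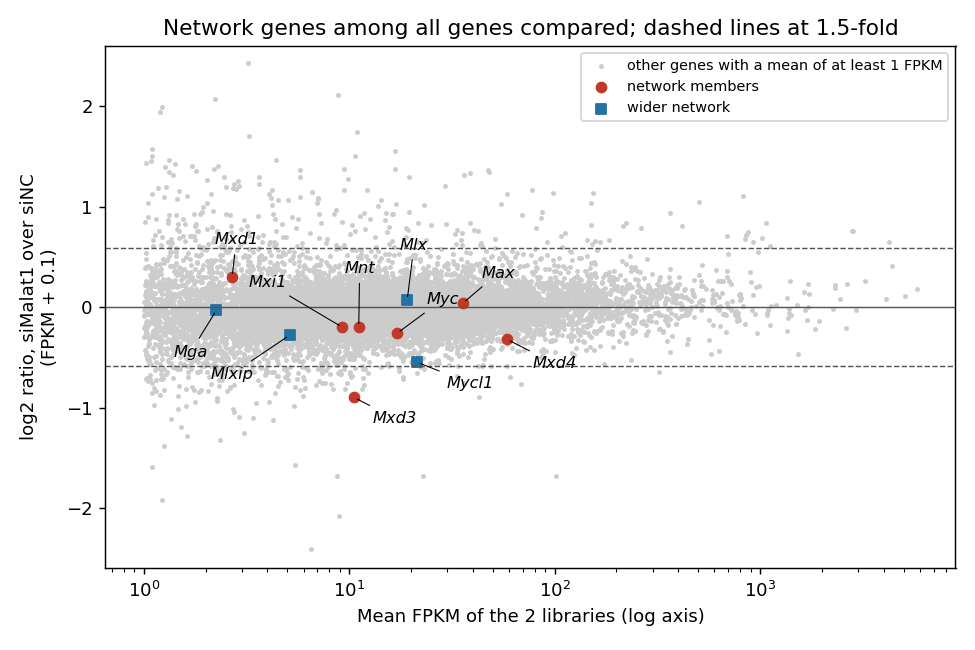
Log2 ratio of si*Malat1* over siNC (FPKM + 0.1) against the mean FPKM of both libraries (log axis) for 11099 genes in gray, of which 2 lie outside the plotted range, with network members as red circles and genes of the wider network as blue squares. *Mxd3* at -0.90 is the 1 network gene compared that lies beyond the dashed lines at 1.5-fold.

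The balance of the sides was described by summing FPKM. *Myc* and *Mycn* together stood at 18.9 FPKM in siNC, against 15.7 in si*Malat1*, a ratio of 0.831. The 5 repressors together stood at 103.2 and 81.3 FPKM, a ratio of 0.788, and without *Mxd3* the ratio was 0.828. The repressor sum was 5.47 times the sum of *Myc* and *Mycn* in siNC and 5.19 times in si*Malat1*. Leaving out *Mxd3*, whose locus is shared with another gene, these values were 4.74 and 4.72. Without *Mxd3* the ratios of both sums were therefore nearly the same. The L-Myc gene *Mycl1* is in neither sum, though it stood above *Myc*, at 25.6 FPKM in siNC, against 17.4 in si*Malat1*. Counted as an activator it would lower the values in both libraries. Its ratio of si*Malat1* over siNC, 0.68, was below those of both sums, 0.831 and 0.788. The fall from 5.47 to 5.19 is therefore not shown to hold with *Mycl1* included, and that sum was not made. *Mxd4* made up 63.1% of the repressor sum in siNC and 64.0% in si*Malat1*, whereas the part of *Mxd3* was 13.4% and 9.02%. *Myc*, *Mycn* and the 5 repressors summed to 3.45 times the FPKM of *Max* in siNC and 2.67 times in si*Malat1*, with *Mycl1* and *Mga* not included. These are sums of RNA, and protein was not measured in these files.

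**Figure D3:**
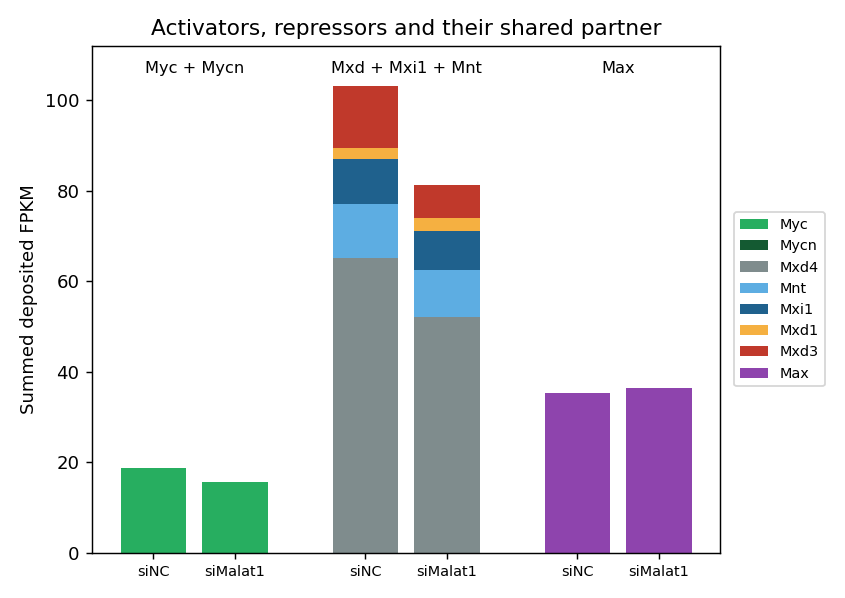
Summed FPKM of the activators *Myc* and *Mycn*, of the repressors *Mxd4*, *Mnt*, *Mxi1*, *Mxd1* and *Mxd3*, and of *Max*, as stacked bars for each library with 1 library a group and no error bars. The repressor bar is 103.2 FPKM high in siNC and 81.3 in si*Malat1*, and that of *Max* is 35.3 and 36.3. *Mycl1* is not included.

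*Mxd3* shares its locus with another gene. The deposited table places it on chromosome 13 of mm9 from 55423416 to 55431091 and gives the same locus to *Prelid1*, which encodes a mitochondrial lipid transfer protein. *Prelid1* was far more abundant, at 309.5 FPKM in siNC, against 281.7 in si*Malat1* (log2 ratio -0.14), or 22.4 and 38.4 times the FPKM of *Mxd3*. In the GENCODE M21 annotation of GRCm38 both genes run towards each other on opposite strands and their ends share 105 exonic bases, 4.43% of the exonic bases of *Mxd3*. Of the 1278 stretches of 50 bases in transcript Mxd3-201, 56 (4.38%) occur in *Prelid1*, either strand counted, and in no other annotated gene. No source used here gives the strand of the libraries, so fragments in the shared stretch cannot be assigned by sequence alone. *Rab24*, a small GTPase gene on the other side of *Prelid1* with a locus of its own, stood at 32.5 and 35.5 FPKM. The part of *Prelid1* fragments in the value of *Mxd3* was not tested.

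The other members have a locus of their own in the table. They are *Myc* (chromosome 15 of mm9, 61816896 to 61821916), *Mycn* (chromosome 12, 12942899 to 12948642), *Max* (chromosome 12, 78038256 to 78063235), *Mxd1* (chromosome 6, 86597039 to 86619153), *Mxd4* (chromosome 5, 34519229 to 34530359), *Mxi1* (chromosome 19, 53384996 to 53450300) and *Mnt* (chromosome 11, 74644426 to 74659227). The transcript with the longest coding sequence of each was cut into stretches of 50 bases, the length of a sequenced read, and looked for on either strand in all other genes of that annotation. None of the stretches of *Myc*, *Mycn*, *Mxd1* and *Mnt* occurred in another gene, and 1 of *Max* did. For *Mxd4* 12% occurred elsewhere, mostly in *Gm42846*, an antisense gene that overlaps it, and for *Mxi1* 5.7%, all in *Gm10197* on the opposite strand. These partners were not analysed here, and the values of *Mxd4* and *Mxi1* are less certain by that much.

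The genes with values nearest to those of *Mxd3* in both libraries, among genes at loci of their own, were *Uhrf1*, *Lig1*, *Plk1*, *Tpx2* and *Aurkb*. Nearness was the distance between the pairs of log2 values over the 2 libraries, and ranged from 0.153 for *Uhrf1* to 0.203 for *Aurkb*. *Uhrf1*, which maintains DNA methylation at replication forks, stood at 12.7 FPKM in siNC, against 7.86 in si*Malat1* (log2 ratio -0.69). *Lig1*, the DNA ligase of lagging strand synthesis, stood at 12.2 and 7.24 FPKM (-0.75). *Plk1*, a kinase of mitosis, stood at 12.4 and 7.74 FPKM (-0.67), the spindle factor *Tpx2* at 12.3 and 7.80 FPKM (-0.65), and the Aurora kinase *Aurkb* at 12.2 and 6.87 FPKM (-0.82). All of these are genes of dividing cells. Each was at least 1.5-fold lower in si*Malat1*, which follows from their choice by nearness to *Mxd3*. The paper reports an enrichment of cell cycle terms among its downregulated genes. The share of genes of dividing cells among all genes at least 1.5-fold lower was not counted here. Nothing is therefore read from the function of the genes nearest to *Mxd3*. With 2 libraries their likeness to *Mxd3* means only that the genes have a similar level and a similar ratio.

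Of the genes further out in the network, *Mycl1*, the L-Myc gene, had the lowest ratio among those compared. It stood at 25.6 FPKM in siNC, against 17.4 in si*Malat1*, above *Myc* in both libraries. Its log2 ratio was -0.55, just short of 1.5-fold as deposited, and -0.61 and past it when both libraries were scaled to the same FPKM sum. *Mycl1* has a locus of its own and shares no stretch of 50 bases with another gene. *Bmyc*, a rodent gene related to the amino-terminal part of *Myc*, stood at 0.493 and 0.0530 FPKM. It is too low to be compared, and 60.9% of its stretches of 50 bases lie also in the antisense gene *A230005M16Rik*. *Mlx*, the Max-like partner of Mxd1, Mxd4 and Mnt, stood at 18.7 and 19.7 FPKM (log2 ratio 0.07) in a locus shared with *Psmc3ip* (7.67 and 5.64 FPKM), a recombination gene on the opposite strand. *Mlxip*, the nutrient sensor MondoA, stood at 5.64 and 4.63 FPKM (log2 ratio -0.28), and its relative *Mlxipl*, or ChREBP, is listed at 0 in siNC and at 0.0216 FPKM in si*Malat1*. *Mga*, which pairs with Max and carries a T-box as well, stood at 2.29 and 2.23 FPKM (log2 ratio -0.03, and 0.00 with the median of all genes set to 0). Of the 4 genes of this group that were compared, 0 passed 1.5-fold in either direction as deposited, and their median log2 ratio was -0.16.

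No corepressor or coactivator listed passed 1.5-fold. Of 14 genes of the Sin3 and histone deacetylase complexes that Mxd proteins recruit, 0 passed 1.5-fold, 8 were lower and 6 higher in si*Malat1*, and the median log2 ratio was -0.06. The deacetylase *Hdac1* had the highest log2 ratio of the list, 0.31, with 21.2 FPKM in siNC, against 26.3 in si*Malat1*. The Sin3 complex gene *Suds3* (49.5 and 50.5 FPKM) and the deacetylase *Hdac2* (76.1 and 77.3 FPKM) lay near 0. *Arid4a*, a further part of the Sin3 complex, stood at 5.67 and 4.64 FPKM (-0.28). Of 14 Myc coactivators, 0 passed 1.5-fold and 10 were lower, with a median of -0.16, beside 57.4% lower and a median of -0.04 over all genes compared. The acetyltransferases *Crebbp* (8.23 and 6.52 FPKM) and *Ep300* (15.2 and 12.2 FPKM) and the chromatin remodeller *Ep400* (10.0 and 8.02 FPKM) lay furthest from 0 on the log2 scale, from -0.33 to -0.32, whereas *Wdr5* (31.4 and 32.2 FPKM) and *Actl6a* (42.3 and 43.1 FPKM) lay at 0.04 and 0.03. Of 14 genes that control Myc turnover or bind Myc, 0 passed 1.5-fold, 9 were lower and 5 higher, and the median was -0.04, as over all genes compared, and 0.00 with that of all genes set to 0. The kinase *Aurka*, which stabilizes N-Myc, stood at 9.80 and 6.96 FPKM, the ubiquitin ligase subunit *Skp2* at 4.90 and 3.89 FPKM, and *Bin1*, a Myc-interacting membrane protein of muscle tubules, at 534.2 and 692.4 FPKM. *Usp36* (9.59 and 9.44 FPKM) and *Zbtb17*, the Myc partner Miz1 (13.4 and 13.4 FPKM), stood nearly level. The locus of *Zbtb17* is shared with *Spen*.

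Genes known as Myc targets lay on both sides of 0. Of 28 nucleolar and ribosome assembly genes, 0 passed 1.5-fold, and 16 were higher and 12 lower in si*Malat1*. The median log2 ratio was 0.06, beside -0.04 for all genes compared, and 0.01 with both libraries at the same FPKM sum. Their log2 ratios furthest from 0 belonged to the assembly factors *Wdr12* (3.58 and 4.55 FPKM), *Mrto4* (27.7 and 34.8 FPKM) and *Nip7* (12.3 and 14.7 FPKM), and those nearest to it to *Polr1b* (7.17 and 7.11 FPKM) and *Bop1* (78.6 and 78.8 FPKM), whose locus is shared. Of 16 genes of nucleotide and polyamine synthesis, 1 was at least 1.5-fold higher, beside 2.29% of all genes compared. It was *Odc1*, the first enzyme of polyamine synthesis and a textbook Myc target, with 27.96 FPKM in siNC, against 43.0 in si*Malat1* (log2 ratio 0.62, and 0.57, short of 1.5-fold, with both libraries at the same FPKM sum). *Shmt2* (62.6 and 83.9 FPKM) and *Nme1* (85.9 and 104.1 FPKM) followed without passing it, and *Ppat* (7.45 and 7.503 FPKM) and *Impdh1* (63.3 and 63.3 FPKM) were level. *Shmt2* shares its locus with *Ndufa4l2*, and *Ppat* with *Paics*. The median of this list was 0.03, and -0.02 with both libraries at the same FPKM sum. Of 13 glycolysis and uptake genes, 2 were at least 1.5-fold higher, beside 2.29% of all genes compared. They were the amino acid transporter *Slc7a5* (129.8 and 202.8 FPKM, log2 ratio 0.64) and the hexokinase *Hk2* (13.1 and 19.9 FPKM, 0.60, and 0.55 at the same FPKM sum, short of 1.5-fold), while the lactate carrier *Slc16a1* was lower without passing it (36.0 and 27.3 FPKM, -0.40). The median of these genes was 0.05, and 0.00 with both libraries at the same FPKM sum, with *Gpi1* (110.3 and 114.1 FPKM) and *Eno1* (54.9 and 55.9 FPKM) close to 0. *Eno1* shares its locus with *Gm5506*.

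Of 15 cell cycle genes among the Myc targets, 12 were lower in si*Malat1* and 2 at least 1.5-fold lower, with a median of -0.14 on the log2 scale. Over all genes compared, 57.4% were lower, 1.75% were at least 1.5-fold lower and the median was -0.04. The 2 genes were the helicase subunit *Mcm5* (14.5 FPKM in siNC, against 8.80 in si*Malat1*, log2 ratio -0.71) and cyclin A2, *Ccna2* (21.3 and 13.7 FPKM, -0.63), whose locus is shared with *Exosc9*. The S phase regulator *E2f1* stood at 19.1 and 13.8 FPKM (-0.46), and *Cks2* (10.0 and 9.63 FPKM) and the G1 kinase *Cdk4* (158.6 and 162.6 FPKM) lay near 0. Of 12 genes that Myc is known to repress, 11 could be compared, *Cdkn2b* being listed at 0 in both libraries. Of the 11, 4 were higher and 7 lower in si*Malat1*, and the median was -0.09, beside -0.04 over all genes compared. At least 1.5-fold higher was 1, beside 2.29% of all genes compared, the stress gene *Gadd45a* (142.5 and 227.1 FPKM, log2 ratio 0.67). *Ddit3* (37.8 and 49.3 FPKM), which shares its locus with *Mars*, and the cell cycle inhibitor *Cdkn1a* (786.2 and 1004.3 FPKM) were also on the higher side. The inhibitors *Cdkn1c* (1.91 and 1.79 FPKM) and *Cdkn1b* (23.4 and 22.04 FPKM) were close to 0, on the lower side. Over these 8 lists around the network, 4 of 125 list entries were at least 1.5-fold higher and 2 at least 1.5-fold lower, which is near the 2.29% and 1.75% of all genes compared and is no result about the lists.

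**Figure D4:**
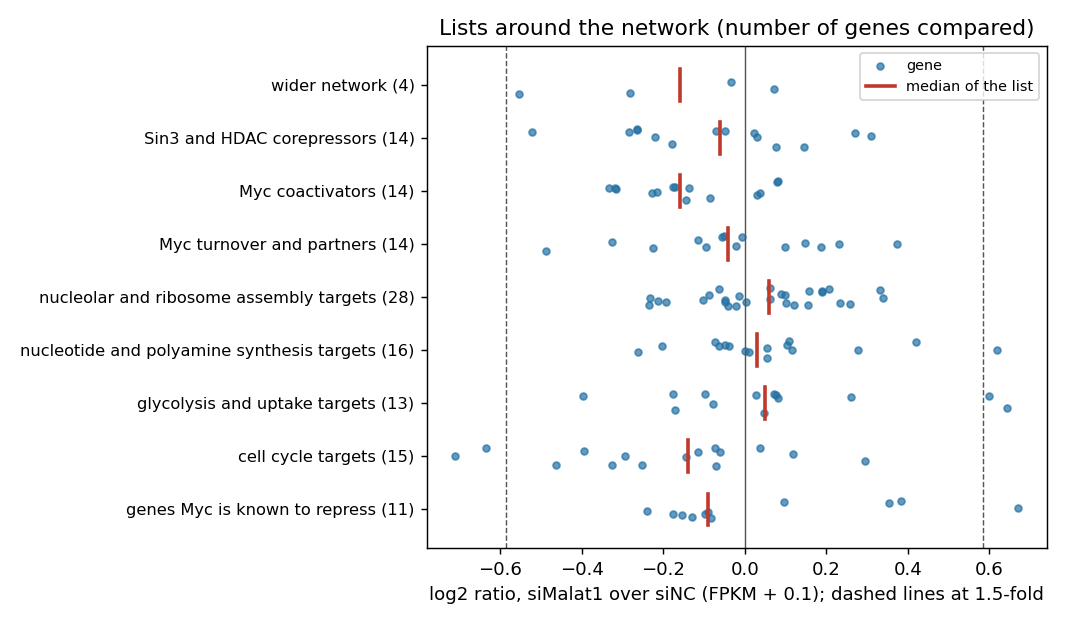
Log2 ratio of si*Malat1* over siNC (FPKM + 0.1) for each gene compared in the wider network and in 8 lists of cofactors and targets, 1 point a gene, spread vertically only to separate the points, with red bars at the list medians and dashed lines at 1.5-fold. The medians lie between -0.16 and 0.06, and the points beyond the dashed lines are *Odc1*, *Slc7a5*, *Hk2* and *Gadd45a* on the right and *Mcm5* and *Ccna2* on the left.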

How the data were processed

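RNA of 2 libraries, siNC and si*Malat1*, was compared. By the labels and the study's methods, the authors sequenced paired reads of 50 bp, mapped them to mm9 with TopHat2 2.0.9, estimated abundances with Cufflinks 2.1.1 and compared the libraries with Cuffdiff 2.1.1. No source used here names the gene annotation. The deposited table holds FPKM per gene and library, which were used as deposited. Its other columns, a natural log of the fold and a significance mark from the authors' own comparison, were not used. The depth behind the FPKM is unknown. Low values were searched for steps of whole fragments, and 366 of the 1937 lowest genes (18.9%) lay on the best step, too few to recover reads, so no counting interval is given.

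Log2 ratios were computed after adding 0.1 FPKM, for genes above 0 in both libraries with a mean of at least 1 FPKM. A gene was counted as higher or lower past a fold of 1.5. With 1 library a group no test was made. Locus starts were raised by 1, since 6044 of 16386 single-gene loci then have the RefSeq length, against 414 as given. Genes sharing a locus number 3375 of 22095. The members and lists were chosen with earlier results of these data known. Genes named are the members, the wider network, genes in a member's locus, *Malat1*, the 3 largest and 2 smallest absolute log2 ratios of each other list, and the 5 genes nearest to *Mxd3*. The values of 1 gene that this rule names are not reported here. Markers and *Rab24*, which lies next to the shared locus of *Mxd3*, were chosen separately, *Rab24* after its values were seen. Other constants, filters, scalings and folds were tried. Scripts ran in Python 3.11.15 with pandas 2.3.3 and were tested on simulated tables.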

Additional observations from a re-analysis of the deposited data

How the results depend on the processing

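No paired analysis was possible because each group is 1 library with no replicate number, and no replicate could be left out. The files hold neither counts nor replicates, so neither counting error nor the spread between cultures is known for any value. The log2 ratio of *Mxd3* lay between -0.96 and -0.87 under the 3 scalings. The count of members at least 1.5-fold lower was 1 as reported, 2 at a fold of 5 to 4 (with *Mxd4*), and 0 at a fold of 2 or with genes sharing a locus left out, which removes *Mxd3*. In that last setting the repressor sum was 4.74 times the sum of *Myc* and *Mycn* in siNC and 4.72 times in si*Malat1*. The list entries at least 1.5-fold higher were 4 as reported, 2 with both libraries at the same FPKM sum (without *Odc1* and *Hk2*), 10 at a fold of 5 to 4 and 0 at a fold of 2. Those lower were 2 as reported, 1 without shared loci (without *Ccna2*), 10 at a fold of 5 to 4 and 0 at a fold of 2. The share of all genes lower past the fold was 8.43% at a fold of 5 to 4, 0.189% at a fold of 2, 0.694% with 1 FPKM added, 3.16% with a mean of at least 0.1 FPKM, and 0.887% with a mean of at least 5 FPKM. The log2 ratio of *Mycn* depended on the constant added, and that of *Max* changed its sign with the scaling. Without shared loci the median log2 ratio of the corepressors was -0.18, and that of the wider network was -0.28 under each other filter on low values.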
